A study of Homo sapiens with 36 samples.

Results

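The comparison described here is RELA activation against a control guide on day 6 after transduction, in Jurkat cells. Jurkat is a line derived from a human T cell leukaemia. Its members are the 12 libraries of day 6, out of 36 libraries in the series, and were chosen from the sample labels alone. They came from 6 of 18 RNA samples: 3 with the guide against RELA (sgRELA) and 3 with a non-targeting guide (sgControl), each sequenced as 2 libraries whose counts were added. All cells of both groups stably carried dCas9-VP64, in which the VP64 activator is joined to a Cas9 that binds DNA but cannot cut it (CRISPR activation), were positive for mCherry, and had been infected with a lentivirus that delivered the guide and then selected with puromycin. The labels describe each guide as a single construct and the 3 replicates of a group as separate transductions. An effect of the guide elsewhere in the genome and an effect of RELA itself therefore cannot be told apart by this design, and cells without a guide were not analysed here. RNA was measured by RamDA-seq, a full-length total RNA method for very small inputs that also covers transcripts without a poly(A) tail.

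RELA encodes p65, the subunit of the NF-kB transcription factors that carries the strongest activation domain. In resting cells p65 is held in the cytoplasm by IkB proteins such as the product of NFKBIA. When IkB kinases mark those inhibitors for destruction, p65 moves to the nucleus, binds kB sites and activates genes for its own inhibitors (NFKBIA, TNFAIP3), for partner subunits (RELB, NFKB1, NFKB2), and for receptors, cytokines and antigen presentation. T cells use this pathway downstream of the antigen receptor and of receptors of the TNF family.

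Day 6 libraries held 7586205 to 12132319 counts each. Totals of the 6 sums used as replicates were 18937594 to 21877757 for sgControl and 18769530 to 22147753 for sgRELA. Markers of the T lineage as Jurkat cells show it were present: 13 of 13 were tested, with a summed level of 3671 to 4421 CPM, counts divided by the effective library size, in sgControl and 4012 to 4391 in sgRELA. Of the markers of erythroid cells and megakaryocytes, HBB, HBA1, HBG1, PF4 and PPBP had 0 counts in all day 6 libraries. EPCAM, KRT19, COL1A2 and LUM, markers of epithelial cells and fibroblasts, were at 0 too. Other members of such lists had counts, and levels were summed over the members that were tested. The 1 tested of 7 erythroid and megakaryocyte markers held 1.38 to 4.71 CPM in sgControl and 1.30 to 3.03 in sgRELA. The 2 tested of 6 fibroblast markers summed to 7.36 to 15.3 CPM in sgControl and 10.6 to 13.8 in sgRELA. For the 5 tested of 8 myeloid markers the sums were 35.6 to 40.7 and 30.03 to 41.2 CPM. For the 3 tested of 6 NK cell markers they were 14.6 to 20.9 and 11.2 to 14.1 CPM. No member of these 4 lists was called. Library 1 of sgControl replicate 1 stood apart from the other 5 sgControl libraries: it had 26526 detected genes against 28174 to 28609, 7.10% of counts on mitochondrial genes against 9.0% to 9.36%, and 46.6 CPM of RELA against 18.8 to 21.8. It was kept, and calls of genes that rest on it are also given without it.

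RELA, the targeted gene, was higher in every sgRELA sample. Its position is chromosome 11, 65653596 to 65663094, minus strand (GENCODE v29, GRCh38). The sgControl sums held 30.9, 20.2 and 20.7 CPM (replicates 1 to 3), and the sgRELA sums 223, 187 and 194 CPM. The groups did not overlap, and sgControl replicate 1 was the highest of its group. Means with SD over 3 sums were 24.0 ± 6.01 CPM for the control guide and 201 ± 19.4 CPM for the RELA guide, an 8.41-fold difference. By edgeR's quasi-likelihood test with Benjamini-Hochberg adjustment the log2 fold change was 3.07 ± 0.14 (SE), adjusted p 2.5e-15. Without the library that stood apart it was 3.29. Permuting the guide labels of the 6 sums (log2(CPM + 1), exact and two-sided) gave p = 0.1, which is the lowest this design can reach. RELA-DT, the noncoding transcript that starts beside RELA in the other direction, held 6.47, 4.60 and 4.30 CPM in sgControl and 9.74, 11.2 and 8.36 in sgRELA, a log2 fold change of 0.93 ± 0.31 (SE) that missed the threshold (edgeR adjusted p 0.49).

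Across 27553 tested genes, 59 differed between the guides on day 6 at an adjusted p under 0.05 by edgeR, which is 0.214% of those tested. Of these, 42 were higher in sgRELA (0.152%) and 17 were lower (0.0617%). The median log2 fold change over all tested genes was -0.003, and 49.5% of them were positive. Before adjustment, 1672 genes had a p under 0.05. For 58 of the 59 genes all 3 sums of one guide lay above all 3 of the other. Over all tested genes 11.3% had such separated sums, 5.91% with sgRELA higher and 5.39% with sgRELA lower. The exception was ENSG00000280800, a long noncoding RNA on chromosome 21, whose sgControl sums held 3.82, 27.1 and 0.18 CPM against 0.22, 0.22 and 0.05 CPM in sgRELA. Its call rested on sgControl replicate 2, without which its edgeR adjusted p was 0.36. Leaving out each of the 6 replicates in turn kept 28 of the 59 calls throughout. With the library that stood apart left out, 75 genes were called, 49 of them among the 59. The calls lost were those of PTPN2, NINJ1, PFKFB3, ITGA4, MT-CYB, CD38, WWP1, MT-ATP6, RCAN3 and NEK7.

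**Figure D1:**
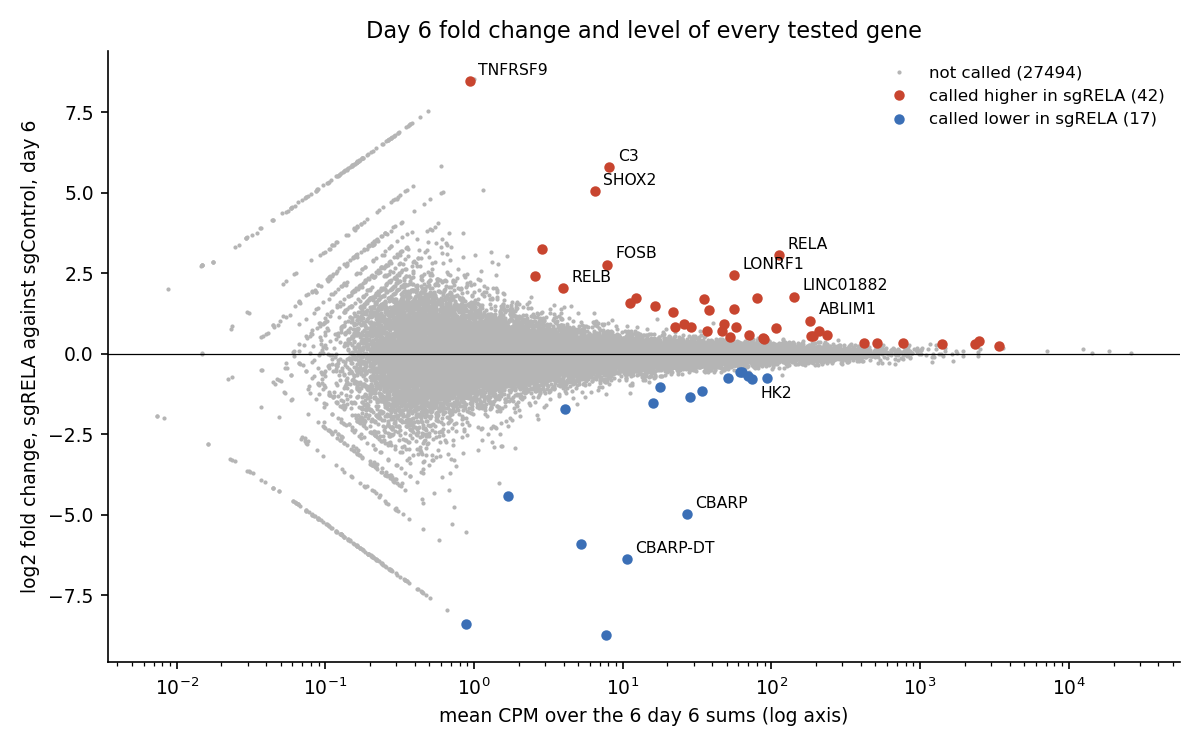
Each point is a tested gene, placed by its mean CPM over the 6 day 6 sums (log axis) and its log2 fold change between sgRELA and sgControl. The 42 genes called higher are red, the 17 called lower are blue and the rest are grey. Fold changes of genes with few counts scatter widely, and small fold changes were called only at high levels.

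Among the NF-kB genes, those called were the partner subunit RELB, the inhibitor NFKBIA, the feedback regulator TNFAIP3 and the receptor TNFRSF9, all higher in sgRELA. NFKBIA encodes IkB alpha, the inhibitor that p65 itself induces. It held 8.83, 15.3 and 13.8 CPM in sgControl and 29.8, 31.3 and 32.6 in sgRELA, a log2 fold change of 1.30 ± 0.19 (SE), edgeR adjusted p 0.00028. TNFAIP3 encodes A20, a ubiquitin-editing enzyme that shuts NF-kB signalling down. Its sums were 36.2, 46.5 and 41.5 CPM in sgControl and 77.7, 61.2 and 85.1 in sgRELA, a log2 fold change of 0.85 ± 0.13 (SE), edgeR adjusted p 0.00059. RELB, the partner subunit of the non-canonical pathway, had low levels: 1.77, 1.97 and 0.93 CPM in sgControl and 6.05, 5.64 and 7.53 in sgRELA, and its log2 fold change was 2.04 ± 0.39 (SE), edgeR adjusted p 0.0079. Without sgControl replicate 3 the edgeR adjusted p was 0.14, and without sgRELA replicate 3 it was 0.075. TNFRSF9, a costimulatory receptor of activated T cells, had no count in any of the 3 sgControl sums and 2.15, 3.18 and 0.31 CPM in sgRELA. Over each group that was 0 against 126 counts, at least 42.7-fold higher in sgRELA when 3 counts are taken as the limit of a group with none. The third sgRELA replicate was far below the other 2. The edgeR adjusted p was 0.0079, and 0.056 without either sgControl replicate 3 or sgRELA replicate 2.

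The other NF-kB subunits did not pass. NFKB1, which encodes p105 and p50, held 37.5, 45.9 and 44.4 CPM in sgControl and 62.6, 47.2 and 66.2 in sgRELA, a log2 fold change of 0.46 ± 0.13 (SE) with an edgeR adjusted p of 0.29. NFKB2, the precursor of p52, held 13, 11.9 and 12 CPM against 18.0, 13.8 and 13.4. For REL, the third subunit with an activation domain, the sums overlapped, at 71.9, 79.3 and 88.9 CPM against 75.3, 81.8 and 85.8, and the log2 fold change was 0.02 ± 0.10 (SE). All 5 subunits tested had positive log2 fold changes, and 2 of 5 were called, RELA itself and RELB. Over all tested genes 49.5% were positive and 0.214% were called, which is the background for this and the other lists. Of 12 IkB proteins and IkB kinases, 1 was called (NFKBIA), 9 were positive and the median log2 fold change was 0.14. Among 18 feedback and ubiquitin regulators 1 was called (TNFAIP3), 8 were positive and the median was -0.01, close to the -0.003 of all tested genes. BIRC3, an inhibitor of apoptosis in the TNF receptor complex, held 5.74, 12.4 and 20.7 CPM in sgControl and 11.9, 16.7 and 21.0 in sgRELA, so its groups overlapped. BIRC3 was named after its values were seen.

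The textbook target genes of NF-kB gave 1 call. Of 42 on the list, 25 were tested, and TNFRSF9 was the only one called, beside 0.214% of all tested genes. Positive log2 fold changes were found in 20 of the 25, beside 49.5% of all tested genes. The median was 0.30 and the range -1.67 to 8.47. A gene with almost no control counts, such as TNFRSF9, passed the filter on low counts only through its sgRELA counts. Such a member could hardly be negative, here and in other lists. The counts of positive members and the medians are therefore description only. The 17 that were not tested had at most 36 counts summed over a group. VCAM1, an adhesion molecule, had 1 count over the sgControl sums and 36 over the sgRELA sums. CXCL10, a chemokine, had 0 and 20. BCL2A1, an inhibitor of apoptosis, had 0 and 16, and CCL20, a chemokine, 0 and 4. IL2, CCL2, CCL3, CCL4, CXCL1 and NR4A2 had 0 counts in both groups. These genes were named after their counts were seen, and the remaining untested members are left out, so they do not stand for the list. None of these differences was tested. LTB, a TNF family ligand, held 0.20, 0 and 0.04 CPM in sgControl and 0.97, 0.63 and 0.73 in sgRELA, and had an edgeR adjusted p of 0.73. FAS, the death receptor, held 15.1, 16.8 and 19.6 CPM against 23.3, 25.3 and 34.6. Its sums did not overlap, but with a log2 fold change of 0.69 ± 0.24 (SE) its edgeR adjusted p was 0.54. TNFRSF4, a receptor related to TNFRSF9, had 0 CPM in all sgControl sums and 0.26, 0.72 and 0.68 CPM in sgRELA, and stood just outside the threshold (edgeR adjusted p 0.0501). LTB, FAS and TNFRSF4 were named after their values were seen. The TNF superfamily list shares members with the target list, TNFRSF9 included, so the same limit holds for it. Of its 26 tested ligands and receptors, 19 were positive, with a median log2 fold change of 0.35. Only TNFRSF9 was called among them, and none was called without sgControl replicate 3 or without sgRELA replicate 2. DESeq2 gave no adjusted p for TNFRSF9 and called none of the other members of either list.

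HLA-B, which presents peptides to cytotoxic T cells, held 156, 141 and 165 CPM in sgControl and 229, 221 and 225 in sgRELA, and its log2 fold change was 0.55 ± 0.08 (SE), edgeR adjusted p 0.00025. It was the 1 called among 19 tested genes of MHC class I and antigen processing. The median of the 19 was 0.15, and 17 were positive, beside 49.5% positive and 0.214% called over all tested genes. B2M, the invariant chain of MHC class I, held 109, 118 and 113 CPM against 134, 121 and 146 and did not pass (log2 fold change 0.24 ± 0.10 (SE), edgeR adjusted p 0.67). Counts of HLA genes depend on how reads shared by related alleles were assigned, which the sources used here do not give. Of 39 interferon-stimulated genes none was called, 29 were positive and the median was 0.17. The 2 with the smallest p were IFI16, with a log2 fold change of 0.24 ± 0.08 (SE), and IFIH1, with 0.67 ± 0.26 (SE).

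**Figure D2:**
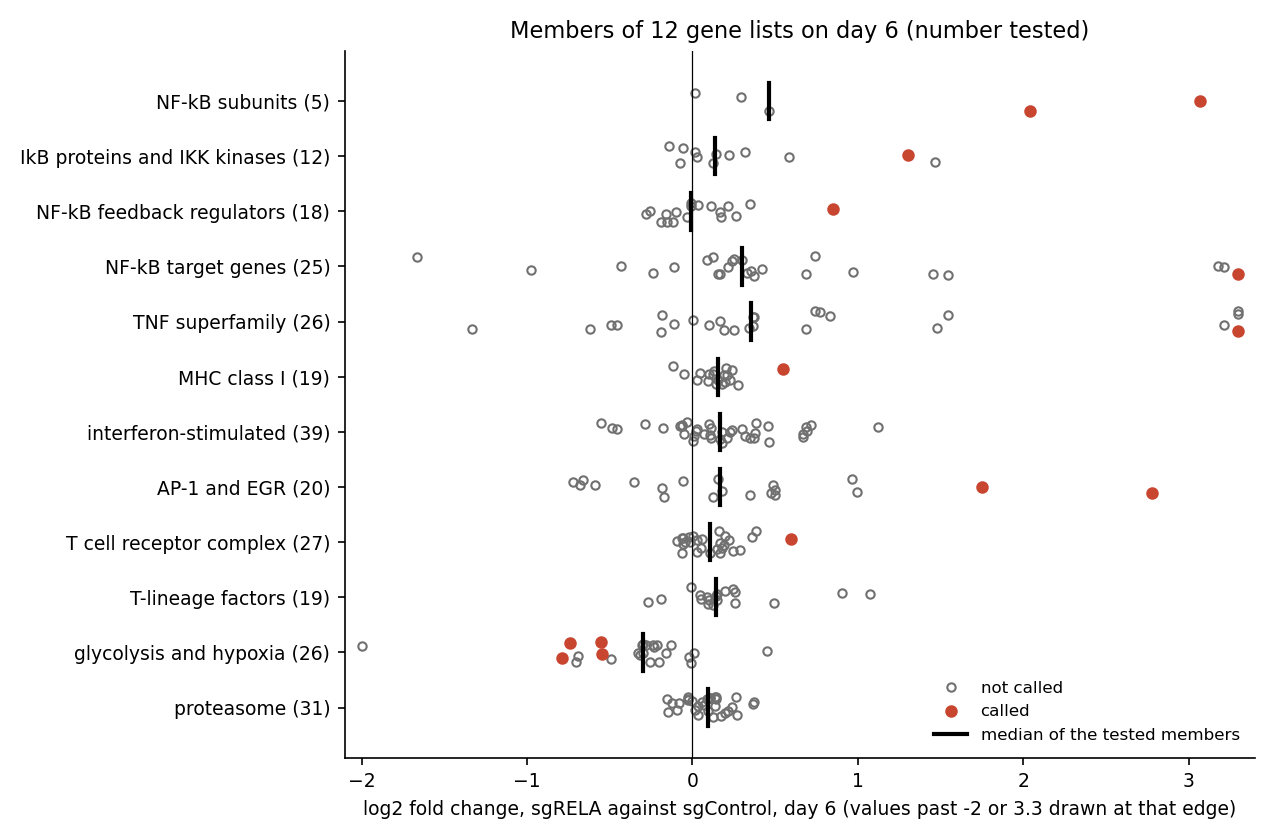
Log2 fold change between sgRELA and sgControl on day 6 (horizontal axis) of each tested member of 12 gene lists. Filled points were called, open points were not, the bar is the median, and values beyond -2 or 3.3 are drawn at the edge. The glycolysis and hypoxia list has its median at -0.30, and the other 11 lists have medians between -0.01 and 0.46.

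The DNA around a RefSeq start of the called genes was read for kB sites, with a single window per gene. That start need not be the outermost of the gene: the windows of PTPN2 and CAMK1D lie inside their GENCODE v29 genes. RefSeq promoter windows (250 bases before to 50 after the start, GRCh38.p14) were at hand for 30 of the 42 genes called higher and 11 of the 17 called lower. The kB consensus motif, searched on both strands, occurred in 10 of the 30 windows of genes called higher, or 33.3% (95% exact binomial interval 17.3% to 52.8%). It occurred in 1 of the 11 windows of genes called lower, that of MCAM, and in 6.39% of 13261 windows of all tested genes. The 10 genes were RNPEP, CHI3L2, OPTN, HLA-B, NFKBIA, TNFAIP3, ELF3-AS1, PTPN2, TNFRSF9 and SEPTIN6. The interval treats genes as independent, although RNPEP and ELF3-AS1 overlap. The shares are description only, and a difference between them was not tested. A stricter form of the motif, with fewer letters allowed at its variable positions, occurred in 4 of the 30 (OPTN, NFKBIA, TNFAIP3 and TNFRSF9), or 13.3%, and in 0.573% of the windows of tested genes. A match is a match of letters only. Binding was not measured, and a window without one says nothing about sites elsewhere. The stretches below are read 5′ to 3′ on the gene's strand, all upstream of the RefSeq start, with the motif in capitals; those of TNFAIP3, TNFRSF9 and CHI3L2 reach into exons that GENCODE v29 annotates. They are shown because their genes are the NF-kB regulators, the receptor and the antigen presentation gene called on day 6, with OPTN and CHI3L2, which are described next.
NFKBIA, chr14:35404776-35404875, minus strand: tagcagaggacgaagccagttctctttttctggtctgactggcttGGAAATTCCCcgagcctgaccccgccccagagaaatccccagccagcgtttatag
TNFAIP3, chr6:137867188-137867217, plus strand: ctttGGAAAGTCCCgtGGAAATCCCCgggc
TNFRSF9, chr1:7940894-7940923, minus strand: gagctgtggtGGGAATTTCCCatgagaccc
HLA-B, chr6:31357302-31357401, minus strand: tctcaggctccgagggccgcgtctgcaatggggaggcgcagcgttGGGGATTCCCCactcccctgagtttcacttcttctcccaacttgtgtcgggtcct
OPTN, chr10:13099982-13100081, plus strand: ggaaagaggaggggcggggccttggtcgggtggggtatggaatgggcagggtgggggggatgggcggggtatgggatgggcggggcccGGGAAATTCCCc
CHI3L2, chr1:111227614-111227643, plus strand: agtctgccagGGGAAGTCCCtggacttctt

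Apart from RELA, and from SHOX2 and C3 below, 7 genes called higher kept their call under every alternative and on leaving out each replicate. These 7 had between 1.65-fold and 5.48-fold higher levels in sgRELA. LONRF1, a RING finger protein with a Lon protease-like domain, held 19.8, 16 and 16.3 CPM in sgControl and 92.9, 102 and 89.9 in sgRELA (log2 fold change 2.45 ± 0.13 (SE), edgeR adjusted p 4.2e-14). LINC01882, a long noncoding RNA on chromosome 18, held 60.9, 64.0 and 68.4 CPM against 207, 233 and 224 (1.78 ± 0.09 (SE) on the log2 scale). RNPEP, an aminopeptidase that removes basic residues, rose from 36.2, 37.9 and 36.1 CPM to 131, 126 and 111. In each of these the sgRELA sums lay far above the sgControl sums and the replicates of a guide were close together. ABLIM1, an actin-binding LIM protein, held 106, 133 and 120.2 CPM in sgControl and 264, 239 and 233 in sgRELA. EPHX1, the microsomal epoxide hydrolase, held 35.9, 27.9 and 28.6 CPM against 79.7, 78.2 and 83.7. OPTN, the autophagy receptor optineurin, which also restrains NF-kB signalling, held 12.8, 18.8 and 18.4 CPM against 45.8, 50.1 and 66.3 (log2 fold change 1.69 ± 0.20 (SE)). CHI3L2, a chitinase-like secreted protein, held 163, 160.3 and 149 CPM against 273, 246 and 259 (0.72 ± 0.08 (SE)).

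SHOX2 and C3 were near 0 in sgControl and present in every sgRELA sum. SHOX2, a homeobox factor of limb and heart development, held 0.88, 0 and 0.27 CPM in sgControl and 12.7, 11 and 14.1 in sgRELA. C3, the central complement component and a known NF-kB target, held 0.78, 0 and 0.09 CPM in sgControl and 10.7, 16.8 and 20.5 in sgRELA. In both genes sgControl replicate 1 was the highest of its group. The log2 fold change of SHOX2 was 5.06 ± 0.55 (SE), edgeR adjusted p 1.2e-06. It was 6.51 without sgControl replicate 1 and 4.47 without sgControl replicate 2. That of C3 was 5.81 ± 0.68 (SE), edgeR adjusted p 4.0e-06, and it became 8.33 without sgControl replicate 1 and 5.22 without replicate 2, so these sizes depend on few control counts. C3 was the 1 gene called among 6 tested of 16 acute-phase and complement genes, of which 3 were positive, with a median log2 fold change of 0.04. The lowest was HP, haptoglobin, at -1.38 and not called, which was named after its values were seen. SERPINA1, an acute-phase protease inhibitor of the same list, held 0, 0.45 and 0.62 CPM in sgControl and 2.98, 3.76 and 2.19 in sgRELA without passing on day 6 (log2 fold change 3.04 ± 0.86 (SE), edgeR adjusted p 0.32).

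CD79A, a signalling chain of the B cell receptor, held 26.2, 17.3 and 20 CPM in sgControl and 58.6, 48.2 and 57.0 in sgRELA (log2 fold change 1.37 ± 0.15 (SE), edgeR adjusted p 1.8e-06). Of the 6 B cell markers it was the only one called. The summed level of the 3 of them that were tested was 28.5 to 36.7 CPM in sgControl and 60.7 to 70.3 in sgRELA, most of it CD79A. BLK had 698 counts over sgControl and 719 over sgRELA, CD79B 14 and 20, MS4A1 2 and 3, and PAX5 2 and 4. MS4A1 and PAX5, defining markers of B cells, were therefore near 0 in both groups. In bulk RNA, more cells of a type and more RNA per cell cannot be told apart. ACSL6, an acyl-CoA synthetase, held 31.4, 38.8 and 28.5 CPM in sgControl and 64.2, 58.1 and 66.1 in sgRELA (log2 fold change 0.93 ± 0.13 (SE)).

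**Figure D3:**
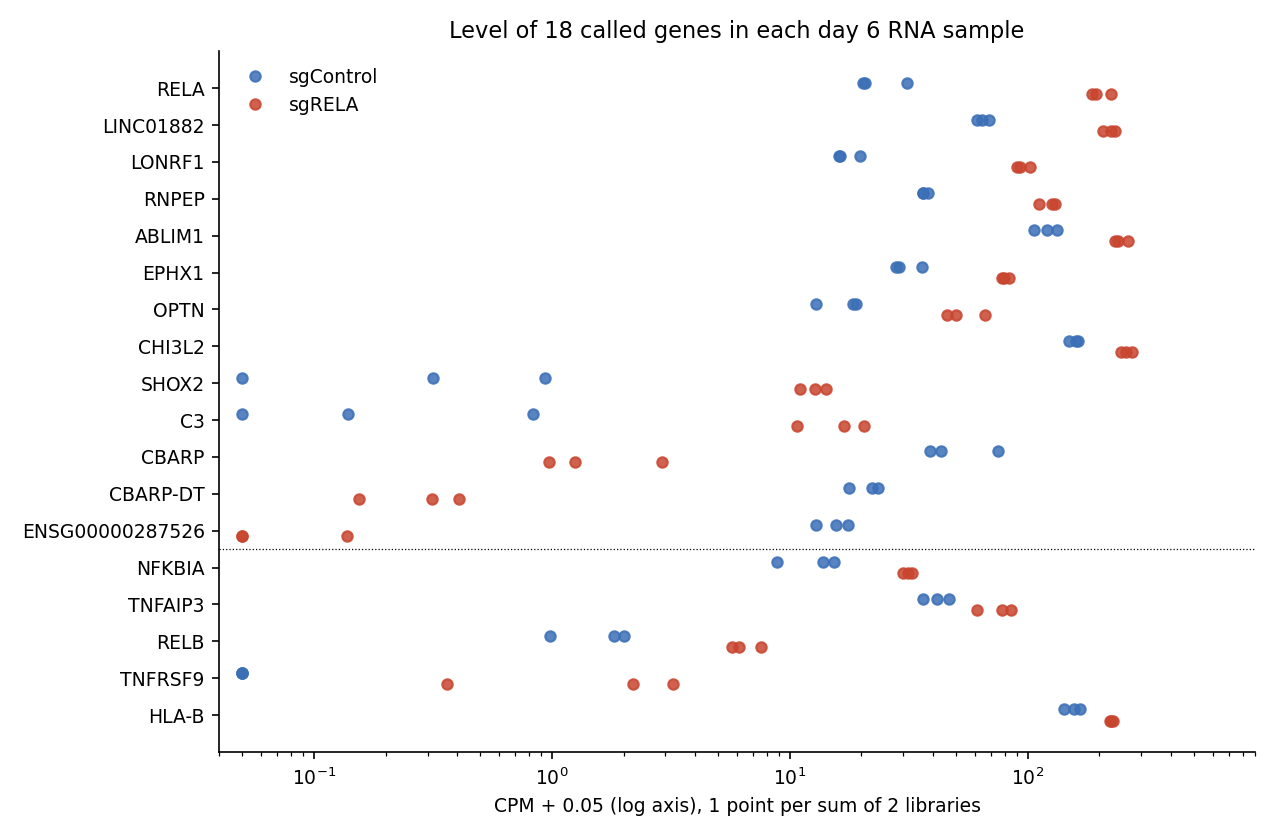
CPM + 0.05 on a log axis for 18 called genes, with 1 point for each sum of the 2 libraries of an RNA sample, sgControl in blue and sgRELA in red. Above the dotted line are the 13 genes that were called under every alternative, below it 5 genes of NF-kB signalling and antigen presentation. Blue and red do not overlap in any row, and SHOX2, C3 and TNFRSF9 have controls at or near the left edge, as CBARP-DT and ENSG00000287526 have sgRELA samples.

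CBARP and its divergent noncoding transcript were close to lost in sgRELA. CBARP, which encodes a protein that binds the beta subunits of voltage-gated calcium channels, held 75.1, 38.9 and 43.3 CPM in sgControl and 0.92, 2.86 and 1.20 in sgRELA, for a log2 fold change of -4.97 ± 0.32 (SE), edgeR adjusted p 8.9e-12, and -5.63 without sgRELA replicate 2. In the library that stood apart, CBARP was at 118 CPM, against 38.1 to 47.7 in the other sgControl libraries, and without it the log2 fold change was -4.68. CBARP-DT starts 151 bases from CBARP on the opposite strand of chromosome 19. It held 23.5, 17.7 and 22.0 CPM in sgControl and 0.26, 0.36 and 0.10 in sgRELA (log2 fold change -6.38 ± 0.44 (SE), edgeR adjusted p 3.1e-11). ENSG00000287526 had 999 counts over the sgControl sums and 2 over the sgRELA sums, a ratio of 491 with a 95% counting interval of 136 to 4062.

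Smaller decreases were found for named protein-coding genes. MYO1E, a class I myosin, held 49.9, 43.1 and 49.1 CPM in sgControl and 21.9, 23.6 and 18.7 in sgRELA (log2 fold change -1.15 ± 0.15 (SE), edgeR adjusted p 6.0e-05). MCAM, a cell adhesion molecule, held 43.8, 38.3 and 39.0 CPM against 19.3, 12.2 and 16.1. GRIP1, a scaffold protein with PDZ domains, held 22.3, 22.6 and 26.1 CPM against 9.17, 8.23 and 7.47 (-1.51 ± 0.25 (SE) on the log2 scale). CAMK1D, a calmodulin-dependent kinase, held 129, 105 and 119.6 CPM against 64.4, 67.2 and 77.3. For these 4 genes the groups did not overlap. The call of CAMK1D was lost without sgRELA replicate 1 (edgeR adjusted p 0.068) and without sgRELA replicate 2 (0.056). NINJ1, which drives rupture of the plasma membrane in dying cells, held 25.8, 21.7 and 24.6 CPM against 11.8, 13.7 and 10.1, with an edgeR adjusted p of 0.017. It failed to pass when the library that stood apart was left out (log2 fold change -0.75, edgeR adjusted p 0.31), and without sgControl replicate 1 (0.075), sgControl replicate 3 (0.080), sgRELA replicate 1 (0.11) or sgRELA replicate 3 (0.17).

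Some called genes shared a neighbourhood. Of 54 called genes with a position in GENCODE v29, 13 had another called gene within 250 kb, beside 2.12% of 23312 tested genes with a position. Without the mitochondrial genes MT-CYB and MT-ATP6 the counts were 11 of 52 and 2.05%. In each of the 7 pairs both genes moved the same way. The pair just outside the limit, OPTN (higher) and CAMK1D (lower), 263903 bases apart, moved in opposite directions. CTSW, a protease of cytotoxic cells, lies 216714 bases from RELA. It held 81.9, 84.2 and 66.0 CPM in sgControl and 146, 128 and 134 in sgRELA. The log2 fold change of CTSW was 0.81 ± 0.12 (SE), edgeR adjusted p 0.00022. On the other side, 208055 bases from RELA, NEAT1, the nuclear RNA that scaffolds paraspeckles, held 1891, 2201 and 2406 CPM in sgControl and 2898, 2666 and 2961 in sgRELA (0.39 ± 0.06 (SE)). On a list of RELA neighbours with 21 tested genes CTSW was the only one called, 10 were positive, and the median log2 fold change was -0.001.

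PTPN2, a phosphatase that dampens cytokine and antigen receptor signalling, lies 9340 bases from LINC01882 and held 71.7, 72.8 and 71.4 CPM in sgControl and 97.8, 108 and 101 in sgRELA, and its log2 fold change was 0.51 ± 0.09 (SE), edgeR adjusted p 0.0052. It fell short without the library that stood apart (0.36, edgeR adjusted p 0.21) and without sgRELA replicate 2 (edgeR adjusted p 0.064). ELF3-AS1, an antisense RNA that overlaps RNPEP, held 10.5, 7.68 and 7.71 CPM against 28.8, 26.9 and 16.6. ENSG00000228484, a noncoding RNA 79784 bases from ABLIM1, held 6.47, 6.52 and 3.90 CPM against 19.7, 16.6 and 13.7. Its call was lost without sgControl replicate 3 (edgeR adjusted p 0.10) and without sgRELA replicate 1 (0.079). The strand setting of the counting is not given in the sources used here, so reads of overlapping and antisense genes such as RNPEP and ELF3-AS1, or CBARP and CBARP-DT, may be shared.

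Most genes of glycolysis and of the hypoxia response had lower values in sgRELA on day 6, and 4 of them passed the test. Of 26 members, all tested, 24 had negative log2 fold changes, 4 were called lower (HK2, SLC2A1, ALDOC and PFKFB3) and none higher, and the median was -0.30, beside -0.003 over all tested genes. For 12 of the 26, the sgRELA sums all lay below the sgControl sums, whereas 5.39% of all tested genes had sums separated in that direction. Summed over the 26 genes, the level was 5463 to 5905 CPM in sgControl and 4364 to 4952 in sgRELA. SLC2A1, the glucose transporter of most growing cells, held 55.6, 59.9 and 75.2 CPM in sgControl and 41.5, 31.5 and 41.4 in sgRELA (log2 fold change -0.74 ± 0.15 (SE), edgeR adjusted p 0.014). HK2, the hexokinase that traps glucose in the cell, held 76.6, 83.5 and 123 CPM against 43.1, 53 and 68.1 (-0.79 ± 0.15 (SE), edgeR adjusted p 0.0063). ALDOC, an aldolase, held 71.3, 69.8 and 76.2 CPM against 45.3, 51.6 and 51.8. PFKFB3, which makes the activator of phosphofructokinase, held 72.9, 72.3 and 80.4 CPM against 46.3, 48.9 and 59. Each of the 4 lost its call without sgControl replicate 3 (edgeR adjusted p 0.15 to 0.18) and without sgRELA replicate 2 (0.053 to 0.19), and HK2, ALDOC and PFKFB3 also without sgRELA replicate 1 (0.11 to 0.27).

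The later steps of the pathway showed smaller differences that did not pass. PGK1, phosphoglycerate kinase, held 536, 581 and 600.4 CPM in sgControl and 464, 480.1 and 471 in sgRELA (log2 fold change -0.28 ± 0.07 (SE), edgeR adjusted p 0.085). ENO1, the main enolase, held 656, 779 and 819.6 CPM against 549, 629 and 647 (-0.30 ± 0.07 (SE), edgeR adjusted p 0.085). Both passed when the library that stood apart was left out, and the list then had 7 members called lower, with PFKFB3 no longer among them. The number of members called lower depended on the replicates: 9 without sgControl replicate 1, 4 without sgControl replicate 2 or sgRELA replicate 3, 1 without sgRELA replicate 1, and 0 without sgControl replicate 3 or sgRELA replicate 2. The median stayed negative in each, between -0.35 and -0.23. AK4, a mitochondrial adenylate kinase outside the list that was named after its values were seen, held 65.0, 86.7 and 103 CPM against 55.5, 49.5 and 54.7 and was called at an edgeR adjusted p of 0.046. It lost the call on leaving out any of the replicates other than sgControl replicate 1.

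On days 5 and 7 the same list did not separate the guides. Its median log2 fold change was -0.05 on day 5 and -0.04 on day 7, and its summed level was 8854 to 9822 CPM in sgControl and 8768 to 9290 in sgRELA on day 5, and 6819 to 7133 and 6769 to 6860 on day 7. In both guides the list was lowest on day 6. The difference between day 6 and the other days was called for none of its members (edgeR, over all tested genes), so a day 6 effect that differs from the other days is not shown for any single gene.

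**Figure D4:**
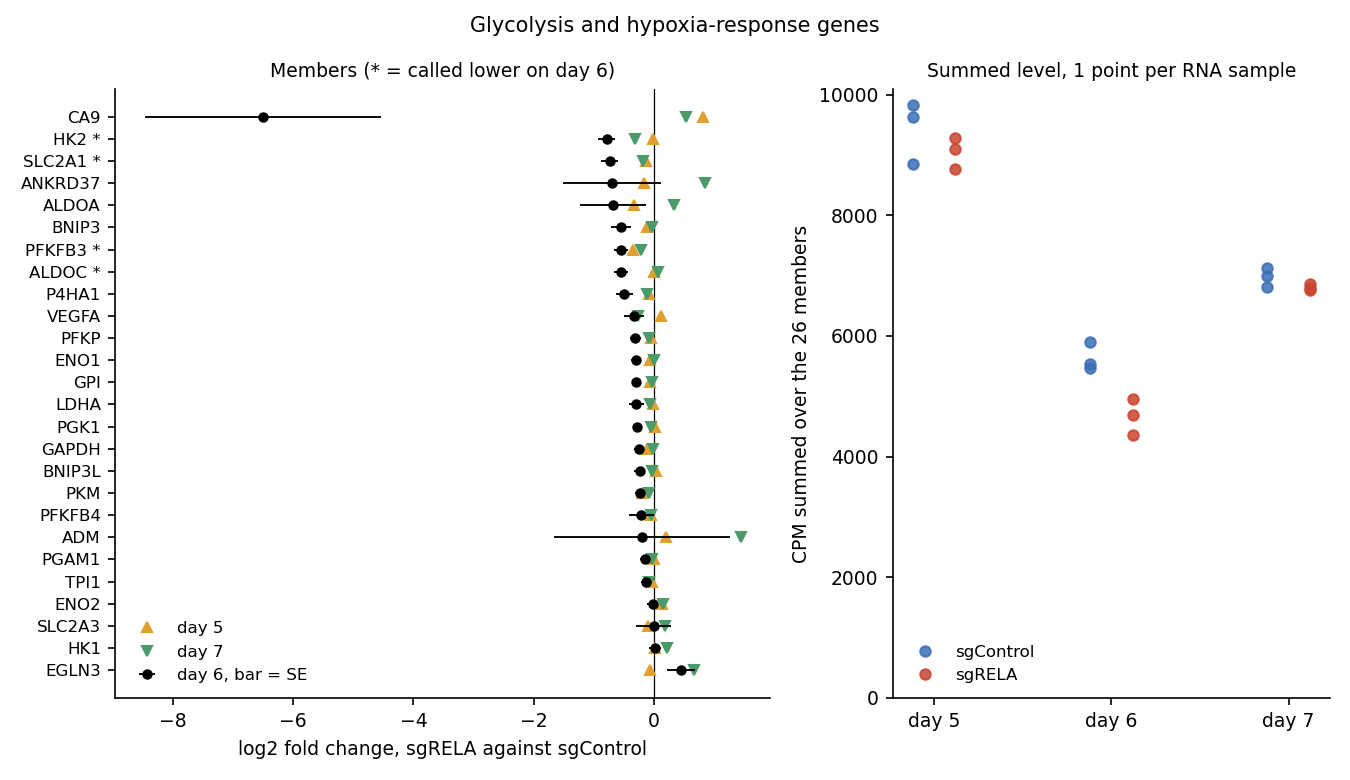
Left, log2 fold change between sgRELA and sgControl of the 26 glycolysis and hypoxia genes on day 6 (black, bars are SE), day 5 (upward triangles) and day 7 (downward triangles), with an asterisk at the 4 called lower on day 6. Right, CPM summed over the 26 genes in each RNA sample: only on day 6 do the 3 sgRELA points all lie below the 3 sgControl points.

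The immediate early genes FOS and FOSB, subunits of the AP-1 transcription factor that cells induce within minutes of stimulation, were higher in sgRELA. FOSB held 2.35, 2.32 and 1.33 CPM in sgControl and 18.2, 17.4 and 5.64 in sgRELA. FOS held 8.87, 3.89 and 4.08 CPM in sgControl and 24.8, 20.3 and 11.3 in sgRELA. In both, sgRELA replicate 3 was the lowest of its group and still above every sgControl sum. The log2 fold change was 2.78 ± 0.46 (SE) for FOSB and 1.75 ± 0.32 (SE) for FOS, with edgeR adjusted p of 0.0013 and 0.0063. The call of FOS was lost without sgControl replicate 2 (edgeR adjusted p 0.057), without sgControl replicate 3 (0.077) and without sgRELA replicate 1 (0.088). Of the 20 tested genes of this list 2 were called, beside 0.214% of all tested genes. Positive values were found for 12, beside 49.5% of all tested genes, and the median was 0.17. EGR1, a zinc finger factor induced with them, held 46.4, 20.7 and 15.5 CPM in sgControl and 55.7, 60.2 and 44.7 in sgRELA, so the groups overlapped through sgControl replicate 1. Its log2 fold change was 0.96 ± 0.22 (SE), edgeR adjusted p 0.059. It passed without the library that stood apart (1.30, edgeR adjusted p 1.2e-05), without sgControl replicate 1 (1.57) and without sgRELA replicate 3 (1.08). JUN, the main partner of FOS proteins, was not among them, with 4.02, 4.47 and 4.70 CPM against 3.77, 2.15 and 5.75. JUN and EGR1 were named after their values were seen.

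The 2 lists of T cell identity had small median differences. Of 27 tested genes of the T cell receptor complex and its signalling, CD28 was called, 19 were positive and the median log2 fold change was 0.10. Over all tested genes 0.214% were called and 49.5% were positive. CD28, the main costimulatory receptor, held 54.3, 58.6 and 56.2 CPM in sgControl and 89.2, 82.8 and 84.2 in sgRELA (0.60 ± 0.11 (SE), edgeR adjusted p 0.0066, and 0.054 without sgRELA replicate 1). CD3E, part of the receptor complex, held 518, 447 and 450.2 CPM against 467, 468 and 427. Among 19 tested T-lineage transcription factors none was called, 16 were positive and the median was 0.14. The closest was RUNX3, a factor of cytotoxic T cells, with 12.6, 12.4 and 7.80 CPM against 21.8, 21.8 and 25.3 (1.07 ± 0.25 (SE), edgeR adjusted p 0.061). It was called without the library that stood apart (adjusted p 0.019). SATB1, a chromatin organiser of thymocytes, had a log2 fold change of 0.26 ± 0.07 (SE), edgeR adjusted p 0.17. CD3E was named after its values were seen.

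No member was called among 17 BCL2 family genes, 18 p53 targets, 21 ATF4 targets, 17 unfolded protein response genes, 16 heat shock genes, 23 cholesterol genes, 17 NRF2 targets, 31 proteasome subunits, 22 genes of G1/S and 22 of G2/M. Their median log2 fold changes lay between -0.05 and 0.10. BCL2L11, the apoptosis activator BIM, held 43.0, 41.4 and 37.1 CPM in sgControl and 55.6, 48.1 and 54.8 in sgRELA (log2 fold change 0.38 ± 0.12 (SE), edgeR adjusted p 0.44). PSMA6, a subunit of the proteasome core, had a log2 fold change of 0.37 ± 0.09 (SE), edgeR adjusted p 0.085. CDT1, which licenses replication origins, had -0.57 ± 0.13 (SE), edgeR adjusted p 0.071, and passed without sgControl replicate 2 (0.047). TXNRD1, thioredoxin reductase, had 0.26 ± 0.08 (SE), edgeR adjusted p 0.45. The mitochondrial transcripts MT-CYB and MT-ATP6 were called with log2 fold changes of 0.25 and 0.32. Both calls were lost when the library that stood apart, which had the lowest mitochondrial share, was left out (0.19 for each).

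Days 5 and 7 used other RNA samples, so they measure the same guides again in cells harvested a day earlier or later. Of the 59 genes called on day 6, 57 had the same sign on day 5, 52 on day 7 and 51 on both (86.4%). Among all tested genes 27.6% had the same sign on all 3 days. By the same edgeR test 29 of the 59 were also called on day 5, where 0.138% of all tested genes were called, and 20 on day 7, where 0.0907% were. The 18 called on all 3 days were RELA, LINC01882, LONRF1, CBARP, RNPEP, CBARP-DT, ENSG00000287526, EPHX1, SHOX2, CD79A, C3, OPTN, HLA-B, TNFAIP3, PTPN2, CAMK1D, RELB and 1 gene known only by an identifier. NFKBIA was called on day 5 (log2 fold change 1.42) and not on day 7 (0.84). Taken in the direction of day 6, the median log2 fold change of the 59 was 1.02 on day 6, 0.65 on day 5 and 0.55 on day 7. Genes chosen for being called on day 6 tend to have their highest values there, so nothing is read from that fall.

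The difference between day 6 and the mean of days 5 and 7 was tested for every gene and called for 1, LINC01882, which is 0.00363% of those tested. Unadjusted, 1386 genes (5.03%) had a p under 0.05. LINC01882 had log2 fold changes of 1.34 on day 5, 1.78 on day 6 and 0.94 on day 7, and the difference was 0.64 ± 0.11 (SE), edgeR adjusted p 0.038. Its sgRELA sums were 155, 146 and 147 CPM on day 5, 207, 233 and 224 on day 6, and 202, 228 and 214 on day 7. The sgControl sums were 55.6, 62.4 and 58.6 CPM on day 5, 60.9, 64.0 and 68.4 on day 6, and 112, 113 and 111 on day 7, so the control level was higher on day 7. The call of the difference was lost on leaving out sgControl replicate 2 of day 6 (edgeR adjusted p 0.15) or any of the 3 sgRELA replicates of day 6 (0.052 to 0.24).

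The 28 genes called on day 6 and on neither other day are not shown to differ between days, since the difference passed for LINC01882 alone. They include FOS and FOSB, the 4 glycolysis genes, CD28, CHI3L2 and CXXC4. CXXC4, an inhibitor of Wnt signalling, was named after its values were seen. It held 0.54, 0.63 and 0.44 CPM in sgControl and 4.39, 2.77 and 8.31 in sgRELA (log2 fold change 3.25 ± 0.51 (SE)), and had positive log2 fold changes of 1.33 on day 5 and 1.06 on day 7. FOSB had log2 fold changes of -0.21 on day 5 and 0.50 on day 7, and its sums of the 2 guides overlapped on both days. On day 5 they were 3.95, 4.75 and 2.07 CPM in sgControl and 2.84, 4.0 and 2.48 in sgRELA.

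**Figure D5:**
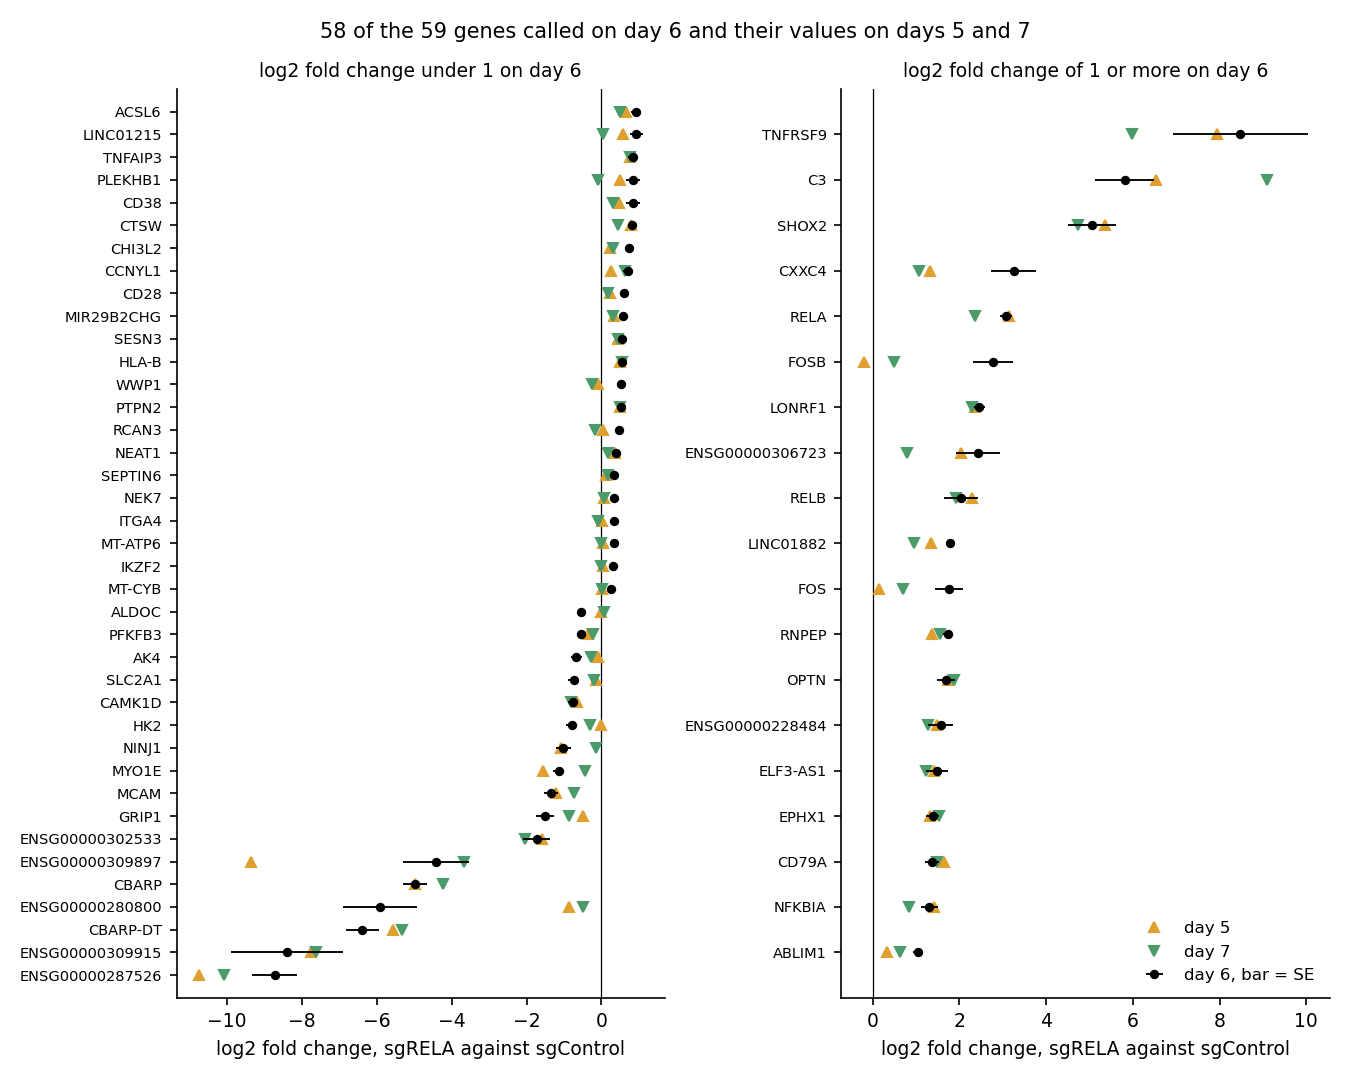
Log2 fold change between sgRELA and sgControl for 58 of the 59 genes called on day 6, with black points and SE bars for day 6, upward triangles for day 5 and downward triangles for day 7. The left panel holds genes with a day 6 value under 1, including all that were lower, and the right panel those at 1 or above. For most genes the 3 days lie on the same side of 0. FOSB, FOS, CXXC4 and ENSG00000280800 are among those with day 6 values far from both other days, but the difference was not called for them.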

How the data were processed

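RamDA-seq counts per gene of 36 libraries were deposited by the authors as 1 table of raw counts, with no normalization per the labels. Cutadapt 1.18, STAR 2.7.9a and GRCh38 are named in the submitters' processing notes. The counting tool, annotation, strand setting and handling of multiply mapped reads are not given in the sources used here. The 2 libraries of each RNA sample were added, and the 18 sums were fitted together with edgeR 4.0.16 in R 4.3.3 (TMM, filterByExpr with a minimum count of 10, quasi-likelihood F test, Benjamini-Hochberg), with a mean for each of 6 groups of guide and day and no replicate block. Genes were called at an adjusted p under 0.05. Levels are CPM scaled with TMM factors (1.02 to 1.08 on day 6). Standard errors come from the F statistic. Where one group had no count, 3 counts were taken as its limit. Libraries held 7586205 to 16124473 counts, the labels mention no molecular identifiers, and limits and intervals cover counting error only. Of 74628 identifiers, 57693 matched the table of gene names. Positions are those of GENCODE v29 and promoter sequences those of RefSeq.

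Alternatives were DESeq2 1.42.0, other scaling and filters, fewer samples and a replicate block. The method was tested on simulated data. Named by rule are RELA and the 15 called higher and 12 called lower with the smallest p (at most 2 identifiers per direction). The rule also names called list members, the 2 smallest p of lists with none called, and genes the difference test calls. Any other name was chosen after its values were seen. These include NEAT1, ELF3-AS1, PTPN2, ENSG00000228484, RELA-DT and uncalled members of lists with a called gene, such as EGR1, TNFRSF4 and PGK1. The comparison, the lists and the rule were chosen with earlier results of these data known. Some single genes are not reported here.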

Additional observations from a re-analysis of the deposited data

Results flagged for a closer look

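In 16 searches for a sample far from the others (8 measures in the 6 libraries of each guide on day 6), 7 passed. Chance passes about 1 in 20 where searches are independent. These searches shared libraries and some values lay at 0, so the 7 cannot be set against that rate. Of the sgControl libraries, library 1 of replicate 1 had 26526 detected genes (28174 to 28609 in the other 5), a mitochondrial share of 7.10% (9.0% to 9.36%), 46.6 CPM of RELA (18.8 to 21.8) and 118 CPM of CBARP (38.1 to 47.7). Library 2 of the same RNA had 1.55 CPM of SHOX2, against 0 to 0.32 in the other 5, and 1.21 CPM of C3, against 0 to 0.24. Of the sgRELA libraries, library 1 of replicate 1 had a mitochondrial share of 7.91%, against 9.28% to 10.0%. The effect of the guide on LINC01882 differed between day 6 and the mean of days 5 and 7 by 0.64 on the log2 scale (edgeR adjusted p 0.038).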

How the results depend on the processing

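Of the 59 called genes, 13 kept their call under every alternative tested, and none of the 59 changed sign. Over all gene lists and alternatives, 330 list medians stayed within 1 SD of the replicates from the main value and 38 moved further. DESeq2 called 126 genes (84 higher, 42 lower), 57 of them among the 59 (it gave the other 2 no adjusted p), and 10 for the difference between days, and 70.6% of its calls had the same sign on all days. The first libraries alone gave 15 calls (12 higher, 3 lower), the second libraries alone 35 (25 and 10, all of them, 100%, with the same sign on all days) and the 6 day 6 sums alone 34 (25 and 9). With no filter on low counts 85 genes were called (51 and 34), and 15 for the difference between days. The difference was called for 2 genes without the library that stood apart, and for 0 with library totals only, with the replicate block and with the first or second libraries alone. Leaving out 1 replicate gave 38 to 68 calls, 28 to 46 of them higher and 9 to 24 lower, 0 to 2 calls of the difference, and 82.4% to 94.7% of calls with the same sign on all days. The stricter motif occurred in 13.3% of the windows of genes called higher. REL, at 0.02, became -0.033 with the first libraries alone and -0.0089 with library totals only, and lay between -0.048 and 0.10 without 1 replicate. NFKB2 was at -0.056 with the second libraries alone.

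The replicate numbers were not shown to pair the samples: same-numbered day 6 sums of the guides had correlated deviations of 0.16, -0.007 and 0.028 over 9030 genes, and not every sample correlated best with its own number. With the replicate block 62 genes were called, 53 of them among the 59. Of the 42 NF-kB targets, 17 had too few counts to be tested; whether more depth would change that was not tested.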
